A study of Mus musculus with 7 samples.

Results

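The 9 genes described here encode adhesion molecules and vessel-wall proteins that slow and hold leukocytes on the inner surface of blood vessels: Sele, Selp, Selplg, Cd34, Icam1, Icam2, Vcam1, Ackr1 and Vwf. They were chosen by name among the 22180 genes that had a probe set annotated with that symbol alone, and all 9 were measured and lay above the filter on low values, a log2 level of 4.145. Each gene was read from its brightest probe set. RNA came from vascular fragments of the brain of female C57BL/6N mice aged 12 weeks, for which the labels name no transgene or deletion. The treated group (4 arrays) had received the growth factor PDGF-CC into the cerebral ventricles 4 hours earlier, and the control group (3 arrays) had received phosphate-buffered saline (PBS) by the same route and at the same time. The sample sheet gives the strain as C57BL/6 and the age as adult, and does not say whether a sample is a single mouse or a pool, so p-values measure only the spread between these samples, which may be technical.

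Leukocytes leave the blood in steps. Selectins on activated endothelium catch sugars carried by ligands such as PSGL-1 and let the cells roll, and immunoglobulin-family molecules such as ICAM-1 and VCAM-1 then bind leukocyte integrins and hold them. In the resting brain these molecules are scarce in capillaries and are found mainly in venules, and inflammatory cytokines raise several of them through the transcription factor NF-kB. P-selectin and von Willebrand factor are kept together in the Weibel-Palade bodies of endothelial cells and in the granules of platelets, so that their release to the surface does not need new RNA.

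All 14 brain endothelial markers lay above the filter, and their mean log2 level ran from 10.43 to 10.53 in the PDGF-CC arrays and from 10.41 to 10.61 in the PBS arrays. Over all probe sets, the arrays correlated at 0.987 to 0.994. Among markers of other cells limma called 0 of the 8 choroid plexus and 0 of the 13 microglial markers (smallest adjusted p = 0.769 in each list), while the list means did not overlap between groups. Before adjustment, limma p was under 0.05 for 7 of the 8 choroid plexus markers, all lower after PDGF-CC, with a median difference of -0.71 over the list. The same held for 4 of the 13 microglial markers, all higher. The mean of the 8 choroid plexus markers ran from 6.32 to 7.16 after PDGF-CC and from 7.23 to 7.58 after PBS, and that of the 13 microglial markers from 9.66 to 9.75 and from 9.06 to 9.59. Of the other marker lists, only the neuronal one also had means that did not overlap. Its lowest mean after PDGF-CC was 4.629 and its highest after PBS 4.616. The part of these cells in the results below was not tested. Each sample description holds a running number: 1, 2, 5 and 6 for PDGF-CC arrays 1 to 4, and 3, 4 and 7 for PBS arrays 1 to 3. Differences are therefore also given within numbers 1 to 4 (2 arrays a group) and within 5 to 7 (2 PDGF-CC arrays and 1 PBS array). In both parts the PDGF-CC numbers come before the PBS numbers, so treatment and order within a part cannot be told apart. In bulk RNA, fewer cells of a type and less RNA per cell cannot be told apart either.

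Sele and Selp, the genes that varied most between arrays, both lie on mouse chromosome 1. The 250 bases before their RefSeq starts are shown, with those of Icam1. Sele and Selp were low in the same pair of arrays (below), and Icam1 was not. Ackr1 was low in that pair too, but its window is not printed and matched none of the motifs described here. The printed windows are from the assembly GRCm38.p6, plus strand, at chr1:164047984-164048233, chr1:164115014-164115263 and chr9:21015690-21015939. Capitals mark matches to any of 5 motifs searched on both strands: the kB motif (GGG and CC with any 5 bases between them), the AP-1 motif TGANTCA, the ATF motif TGACATCA, the TATA motif TATAAA and the STAT motif TTCCNGGAA.
Sele: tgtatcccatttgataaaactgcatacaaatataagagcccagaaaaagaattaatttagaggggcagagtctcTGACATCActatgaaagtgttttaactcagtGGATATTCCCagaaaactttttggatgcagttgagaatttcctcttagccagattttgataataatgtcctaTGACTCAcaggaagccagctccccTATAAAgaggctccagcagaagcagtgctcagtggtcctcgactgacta
Selp: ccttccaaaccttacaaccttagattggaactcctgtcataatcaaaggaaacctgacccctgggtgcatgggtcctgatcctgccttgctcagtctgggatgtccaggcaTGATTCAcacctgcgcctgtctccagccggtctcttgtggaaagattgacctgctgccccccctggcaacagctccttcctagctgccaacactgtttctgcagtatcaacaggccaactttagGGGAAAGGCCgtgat
Icam1: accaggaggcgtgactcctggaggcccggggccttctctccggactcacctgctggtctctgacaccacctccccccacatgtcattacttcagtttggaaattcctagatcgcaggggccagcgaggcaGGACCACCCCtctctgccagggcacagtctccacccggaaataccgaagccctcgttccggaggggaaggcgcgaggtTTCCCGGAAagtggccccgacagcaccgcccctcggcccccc

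The Sele window held 1 match each to the kB, AP-1, ATF and TATA motifs, and the kB match GGATATTCCC lay 145 to 136 bases before the start on the minus strand. Minus-strand matches are given by their plus-strand letters. The Selp window held 1 kB match, GGGAAAGGCC, 15 to 6 bases before the start, and 1 AP-1 match, TGATTCA, 139 to 133 bases before it. The Icam1 window held 1 kB match on the minus strand, GGACCACCCC, and 1 STAT match, TTCCCGGAA, the latter 42 to 34 bases before the start. Of 5 members with a promoter entry, Cd34 had 1 kB match and Ackr1 had no match to the 5 motifs. Among all 32851 promoter windows of 250 bases, 45.8% held a kB match, 6.75% an AP-1 match, 2.93% an ATF match, 12.4% a TATA match and 0.913% a STAT match. In no pair of motifs did matches overlap in the 3 printed windows. A match is a description of the letters and not a binding site. The motifs were chosen after the sequences had been seen.

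None of the 9 genes passed the adjusted threshold of 0.05 in the comparison of PDGF-CC with PBS by limma, and the background over all tested probe sets was 0 of 17734 (0%). Before adjustment, p was under 0.05 for 0 of the 9 genes and for 6.04% of the tested probe sets. In none of the 9 did every PDGF-CC array lie above every PBS array, or below, while 1.80% of tested probe sets were separated upwards, 2.50% downwards and 4.30% in either direction. The difference was positive for 5 of 9, against 48.4% of tested probe sets, and its median was +0.0073 on the log2 scale, against -0.0038 over all tested probe sets. Over all 7 arrays Sele and Selp had the widest ranges of the 9 genes, and only Cd34 had a range below the median of tested probe sets, 0.39 log2 units.

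**Figure D1:**
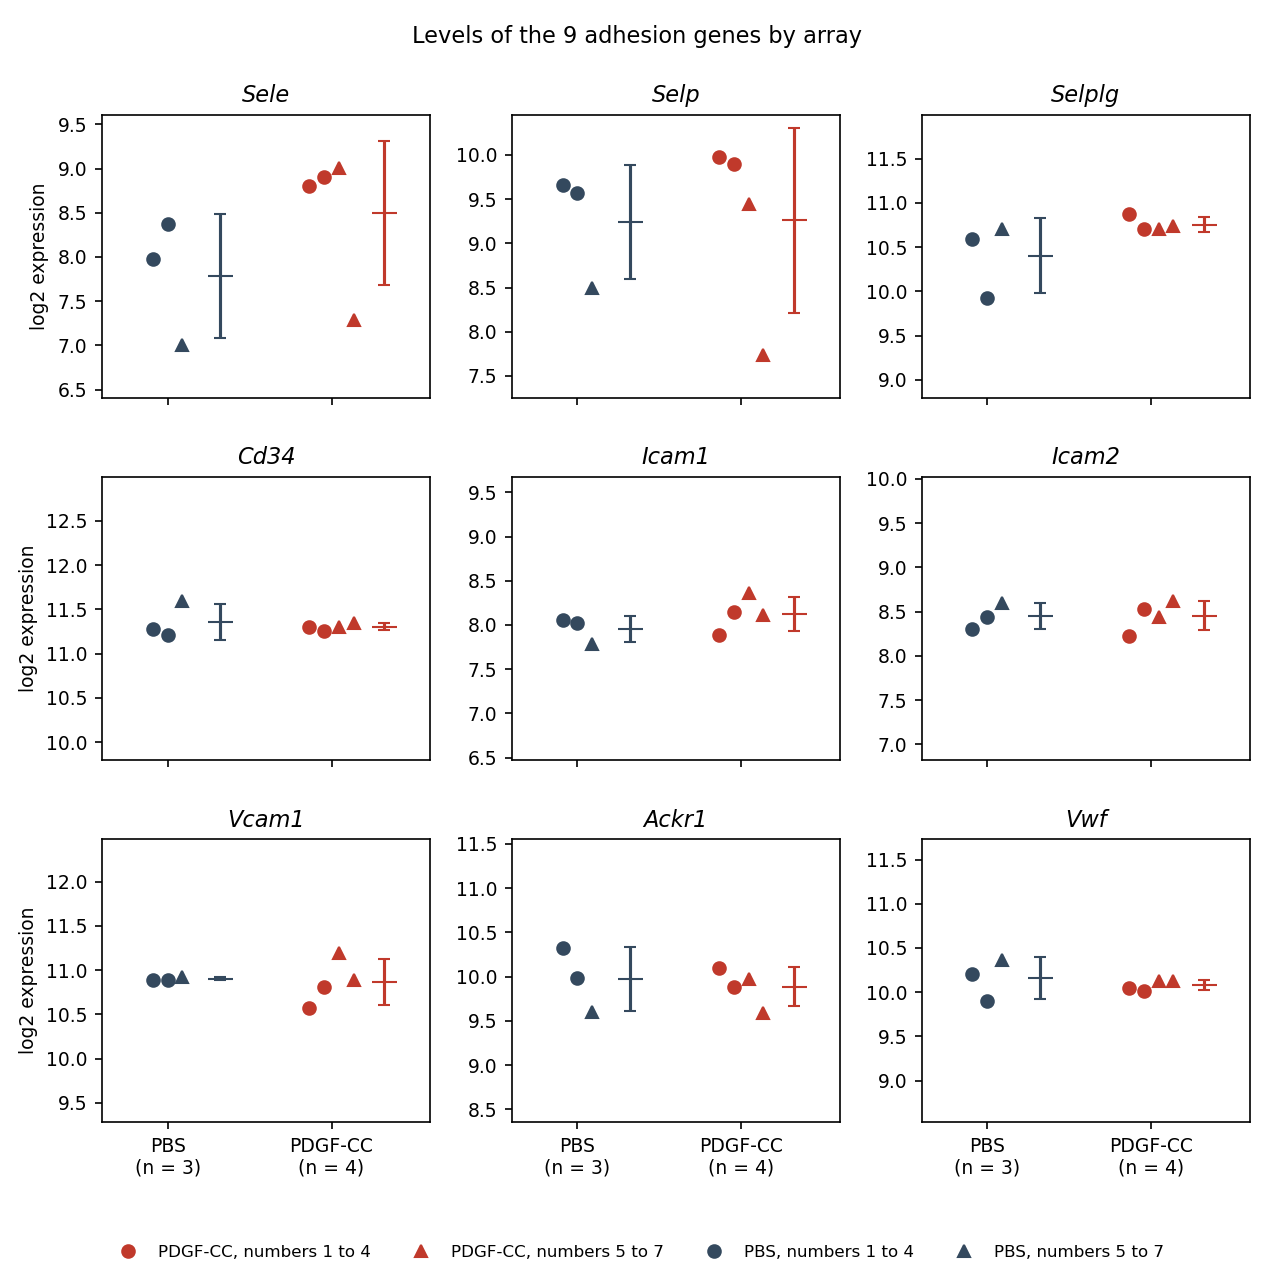
Log2 expression of the 9 genes in each array, by group, with mean and SD beside the points (n = 3 PBS, n = 4 PDGF-CC); circles are arrays numbered 1 to 4 and triangles 5 to 7, and every panel spans the same number of log2 units. Sele and Selp are spread over about 2 log2 units (1.998 and 2.24), with PDGF-CC array 4 and PBS array 3 at the bottom, and the groups overlap in every panel.

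Sele encodes E-selectin, which endothelial cells make anew when cytokines activate them. Its log2 level was 8.81, 8.91, 9.01 and 7.29 in PDGF-CC arrays 1 to 4, and 7.97, 8.37 and 7.01 in PBS arrays 1 to 3. The first 3 PDGF-CC arrays lay above every PBS array, while PDGF-CC array 4 lay below PBS arrays 1 and 2, so that the groups overlapped. The difference was +0.72 ± 0.50 (log2, SE, n = 4 and 3; limma adjusted p = 0.772), a ratio of 1.64 with a 95% interval from 0.729 to 3.71. It was the largest difference among the 9 genes and still lay within the spread between arrays, with SDs of 0.81 and 0.70. Arrays numbered 1 to 4 gave +0.68 and arrays 5 to 7 gave +1.14. Leaving out PDGF-CC array 4 gave +1.12, and leaving out PBS array 3 gave +0.33.

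Selp encodes P-selectin, the selectin stored in Weibel-Palade bodies and platelet granules. Levels were 9.97, 9.90, 9.45 and 7.73 after PDGF-CC and 9.66, 9.57 and 8.49 after PBS. PDGF-CC array 4 was the lowest of the 7 arrays and PBS array 3 the next lowest, and the groups had nearly the same mean, at 9.26 ± 1.05 (SD, n = 4) and 9.24 ± 0.65 (SD, n = 3). The difference was +0.02 ± 0.59 (SE; limma adjusted p = 0.993), and its 95% interval ran from -1.36 to +1.40, so a change of over 2-fold in either direction lay inside it. Within numbers 1 to 4 it was +0.32 and within 5 to 7 +0.097. Its sign hung on single arrays: it was +0.53 with PDGF-CC array 4 left out and -0.35 with PBS array 3 left out. Of 9 measured platelet and megakaryocyte markers, 6 lay above the filter, and Gp6, Clec1b and Tubb1 lay below it. The mean of the 9 ran from 5.03 to 5.52 in PDGF-CC arrays and from 5.17 to 5.39 in PBS arrays, with the lowest values in PDGF-CC arrays 3 and 4 and PBS array 3. No platelet marker above the filter (0 of 6) had PDGF-CC array 4 and PBS array 3 below the other 5 arrays. The part of platelets in the Selp values was not tested.

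Selplg encodes PSGL-1, the main ligand of P-selectin, carried by leukocytes and also by microglia. Levels were 10.87, 10.70, 10.70 and 10.74 after PDGF-CC and 10.59, 9.92 and 10.70 after PBS. PBS array 2 stood below the other 6 arrays, and PBS array 3 held exactly the value of PDGF-CC arrays 2 and 3. The difference was +0.35 ± 0.18 (SE; limma adjusted p = 0.769), a ratio of 1.27 with a 95% interval from 0.948 to 1.71. On the gene's other probe set the levels were 10.43, 10.28, 10.27 and 10.33 against 10.12, 9.56 and 10.22, with a difference of +0.36 ± 0.16 (limma adjusted p = 0.769). There every PDGF-CC array was above every PBS array, which 1.80% of tested probe sets also showed. On the brighter probe set the difference was +0.53 within numbers 1 to 4, +0.018 within 5 to 7 and +0.11 without PBS array 2. Microglial markers were also lowest in PBS array 2, with a mean of 9.06 against 9.57 to 9.75 in the other 6 arrays, and 12 of their 13 members had a positive difference. Their part in the Selplg difference was not tested.

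Cd34 encodes a sialomucin of endothelial cells and stem cells that can carry selectin ligands. Levels were 11.30, 11.26, 11.30 and 11.35 after PDGF-CC and 11.28, 11.21 and 11.59 after PBS. The PDGF-CC values lay close together, and PBS array 3 was the highest of all. The difference was -0.056 ± 0.094 (SE; limma adjusted p = 0.887), with a 95% interval from -0.28 to +0.17. It was +0.036 within numbers 1 to 4 and -0.26 within 5 to 7.

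Icam1 encodes the cytokine-inducible ligand of the leukocyte integrins LFA-1 and Mac-1. Levels were 7.89, 8.15, 8.36 and 8.11 after PDGF-CC and 8.06, 8.03 and 7.79 after PBS. PDGF-CC array 1 lay among the PBS arrays, and the other PDGF-CC arrays lay above them. The difference was +0.17 ± 0.12 (SE; limma adjusted p = 0.773), a ratio of 1.13 with a 95% interval from 0.923 to 1.37. It was +0.45 within numbers 5 to 7 and -0.023 within 1 to 4.

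Icam2, the ICAM that endothelium carries without activation, had levels of 8.23, 8.53, 8.44 and 8.62 after PDGF-CC and 8.30, 8.44 and 8.60 after PBS. The groups covered nearly the same range, and the difference was +0.0073 ± 0.11 (SE; limma adjusted p = 0.989). Its 95% interval in linear terms ran from 0.837 to 1.21. The value was +0.010 within numbers 1 to 4 and -0.072 within 5 to 7.

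Vcam1 encodes the ligand of the integrin VLA-4 on lymphocytes and monocytes. Levels were 10.57, 10.81, 11.20 and 10.89 after PDGF-CC and 10.89, 10.89 and 10.92 after PBS. PDGF-CC arrays held both the lowest and the highest value, and PDGF-CC array 4 and PBS arrays 1 and 2 shared exactly the same one. The difference was -0.035 ± 0.14 (SE; limma adjusted p = 0.953), with a 95% interval from -0.36 to +0.29. Arrays 1 to 4 by description number gave -0.21 and arrays 5 to 7 gave +0.12. The PBS SD of 0.016 rests on 3 values of which 2 are equal.

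Ackr1 encodes an atypical chemokine receptor that binds chemokines without signalling and, in vessels, marks venules. Levels were 10.10, 9.88, 9.98 and 9.58 after PDGF-CC and 10.33, 9.99 and 9.60 after PBS. The lowest arrays were PDGF-CC array 4 and PBS array 3, as for Sele and Selp, and the difference was -0.088 ± 0.19 (SE; limma adjusted p = 0.916). Its 95% interval ran from -0.53 to +0.36. Within numbers 1 to 4 it was -0.17 and within 5 to 7 it was +0.18.

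Vwf encodes von Willebrand factor, the adhesive glycoprotein that shapes Weibel-Palade bodies and binds platelets. Levels were 10.05, 10.01, 10.12 and 10.12 after PDGF-CC and 10.21, 9.90 and 10.36 after PBS. All PDGF-CC values lay between the lowest and the 2 highest PBS values. The difference was -0.079 ± 0.11 (SE; limma adjusted p = 0.859), with a 95% interval from -0.34 to +0.18. Within numbers 1 to 4 it was -0.022 and within 5 to 7 it was -0.24, and without PBS array 2 it was -0.21.

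**Figure D2:**
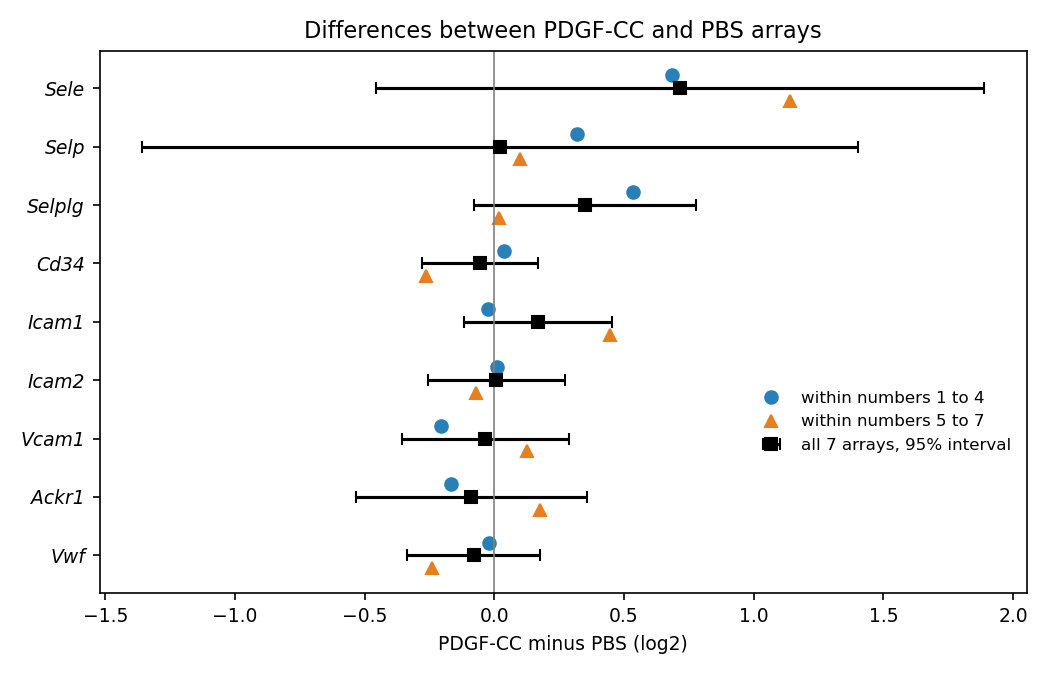
Difference between PDGF-CC and PBS arrays (log2) for each gene: squares give the fit of all 7 arrays with its 95% interval, circles the difference within description numbers 1 to 4 and triangles within 5 to 7. Every interval includes 0, those of Sele and Selp are the widest, and the circle and the triangle lie on opposite sides of 0 for Cd34, Icam1, Icam2, Vcam1 and Ackr1.

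The pattern that 3 of the 9 genes shared ran across the groups. Sele, Selp and Ackr1 each had their 2 lowest values in PDGF-CC array 4 and PBS array 3, which carry the description numbers 6 and 7. Among all tested probe sets 3.99% had these arrays below the other 5. This pair was singled out after the values had been seen. The range over all 7 arrays was 1.998 log2 units for Sele and 2.24 for Selp, 4.00-fold and 4.73-fold, and 0.74 for Ackr1, against a median range of 0.39 over tested probe sets. A range at least as wide as that of Sele was found in 72 of 17734 tested probe sets. The other 6 genes ranged over 0.38 to 0.95 log2 units, and Cd34, Icam2 and Vwf were at or near their highest in PBS array 3.

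Neutrophil and monocyte markers were also low in this pair of arrays. The mean log2 level of 14 markers was 6.13, 5.95, 5.58 and 4.97 in PDGF-CC arrays 1 to 4 and 6.21, 6.00 and 5.26 in PBS arrays 1 to 3, so that PDGF-CC array 4 and PBS array 3 were again the lowest. Of 11 markers above the filter, 6 had both arrays below the other 5: Cxcr2, Retnlg, S100a8, S100a9, Plac8 and Ccr2. S100a8, a calprotectin subunit abundant in neutrophils, was at 8.57, 8.36, 8.26 and 6.35 after PDGF-CC and at 9.47, 9.26 and 7.14 after PBS. The markers Ngp, Camp and Ly6g lay below the filter. Of markers above the filter in other lists, 0 of 6 lymphocyte, 2 of 6 neuronal and 2 of 6 oligodendrocyte markers showed the pattern. It was seen in 1 of 13 microglial and 0 of 11 pericyte markers. The neuronal and oligodendrocyte lists had low levels, with means of at most 4.82 and 5.13 in any array. The neuronal mean was not lowest in this pair, as PDGF-CC array 4, at 4.629, lay above PBS array 1, at 4.555. The 14 brain endothelial markers had no member low in this pair, and their mean was highest in PBS array 3 and PDGF-CC array 4, at 10.61 and 10.53. The mean of 10 venous and venular markers, 5 of them members, was 9.56, 9.60, 9.65 and 9.35 after PDGF-CC and 9.75, 9.59 and 9.49 after PBS. It was lowest in this pair, but it includes Selp and Ackr1, from whose values the pair was singled out. Selp was at 7.73 and 8.49 in the pair against 9.45 to 9.97 in the other 5 arrays, so this mean is no separate sign of the pattern. Of the 10 markers, Selp and Ackr1 had both arrays below the other 5. Lcn2, the lipocalin-2 gene, was at 10.21, 10.52, 10.43 and 9.91 against 10.94, 10.86 and 10.40, lowest in these arrays within each group. Il1r1, the interleukin-1 receptor gene, was at 11.03, 11.12, 11.19 and 11.02 against 11.53, 11.31 and 11.29, lowest in them within each group only by narrow margins. For Il1r1 every PDGF-CC array lay below every PBS array (-0.28 ± 0.080, SE; limma adjusted p = 0.769), as in 2.50% of tested probe sets. Slc38a5, an amino acid transporter gene, was at 9.35, 9.21, 9.31 and 9.52 against 9.45, 9.28 and 9.56, highest in this pair. Ephb4, a receptor gene of veins, was also highest in this pair, at 8.23 in PDGF-CC array 4 and 8.18 in PBS array 3 against 7.89 to 8.12 in the other 5, and Nr2f2, a venous transcription factor gene, was neither highest nor lowest in it, at 8.33 and 8.32. Whether blood cells carried with the vessels had a part in the selectin values was not tested.

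**Figure D3:**
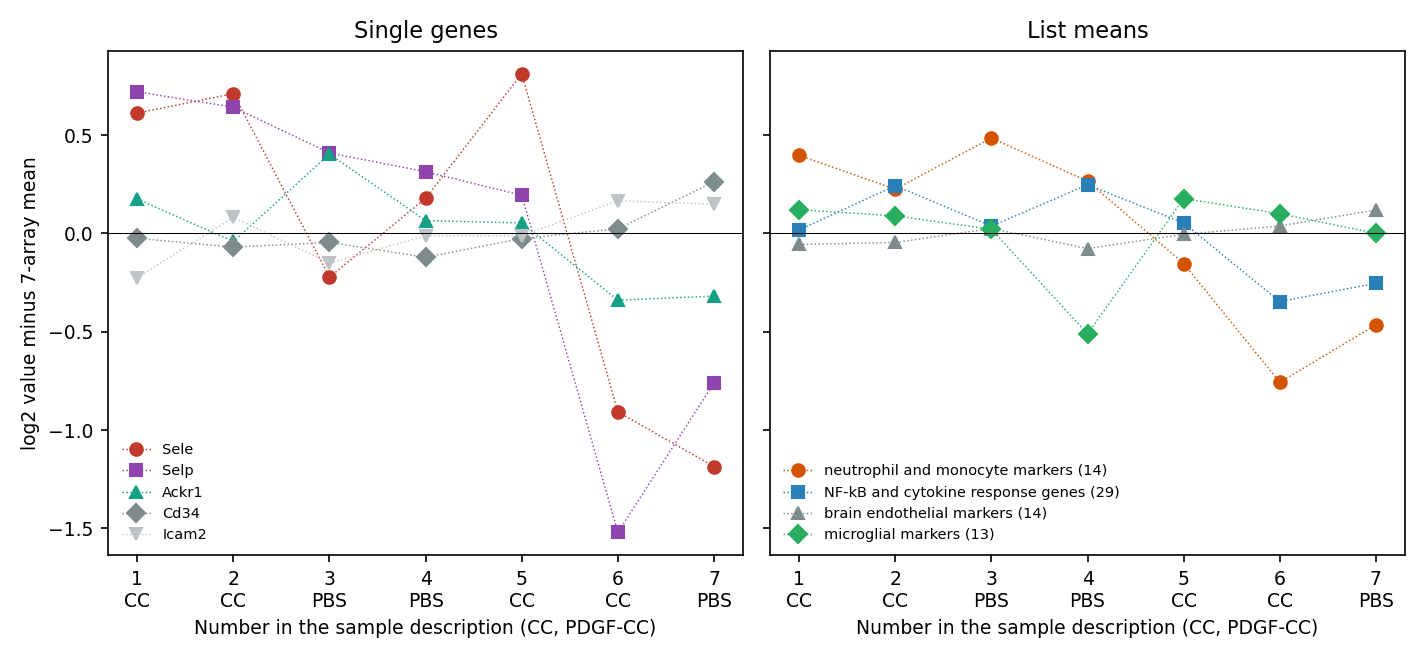
Log2 values minus their mean over 7 arrays, by the number in the sample description (CC, PDGF-CC), for 5 single genes (left) and the means of 4 gene lists (right); the dotted lines only join values of one gene or list. Sele, Selp and Ackr1 lie lowest at numbers 6 and 7, as do the neutrophil and monocyte markers and the NF-kB and cytokine response genes, while Cd34, Icam2 and the endothelial markers do not.

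A list drawn up for the NF-kB and cytokine response of activated endothelium included members with the same array pattern. The list name does not say which cells in this bulk RNA carried the transcripts, and that was not tested. Of 29 measured members, all above the filter, 16 were positive and 13 negative after PDGF-CC, with a median difference of +0.070, and limma called 0 of them. In 8 of the 29, PDGF-CC array 4 and PBS array 3 lay below the other 5 arrays: Tnf, Nfkbiz, Ccl2, Cxcl2, Ptgs2, Cxcl10, Ccl7 and Il1b. Il1b, which encodes the cytokine interleukin-1 beta, was at 9.23, 9.41, 8.21 and 6.80 after PDGF-CC and at 9.01, 8.84 and 7.58 after PBS. Tnf, a cytokine that induces Sele, was at 8.43, 8.15, 7.73 and 6.57 against 6.72, 6.87 and 5.97. Tnf differed by +1.20 ± 0.45 (SE; limma adjusted p = 0.769), and the groups overlapped only through PDGF-CC array 4.

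The members of that list with the smallest p differed in both directions, and none passed the threshold. Bcl3, a nuclear partner of NF-kB subunits, was at 8.27, 8.57, 8.26 and 8.25 after PDGF-CC and at 7.94, 7.91 and 7.94 after PBS. The Bcl3 groups did not overlap, and the difference was +0.40 ± 0.087 (SE; limma adjusted p = 0.722). Nfkbia, which encodes the inhibitor that holds NF-kB in the cytoplasm, was lower in every PDGF-CC array, at 10.11, 10.48, 9.98 and 10.03 against 10.65, 10.80 and 10.67, with a difference of -0.56 ± 0.12 (limma adjusted p = 0.769). Il1a, the gene of interleukin-1 alpha, differed by +0.91 ± 0.22 (limma adjusted p = 0.769) with separated groups. Its levels were 8.79, 8.90, 8.71 and 7.98 after PDGF-CC and 7.85, 7.68 and 7.54 after PBS.

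Other genes of selectin binding gave no call. Of 22 measured genes for further selectins, ligands and the enzymes that build their sugars, 19 were above the filter, 6 of them positive and 13 negative, with a median of -0.049. Gcnt1, the enzyme that builds the branched sugars of PSGL-1, was at 7.93, 7.54, 7.77 and 7.69 after PDGF-CC and at 7.52, 7.04 and 7.54 after PBS. Every PDGF-CC value was above every PBS value, by a narrow margin, and the difference was +0.37 ± 0.15 (SE; limma adjusted p = 0.769). Cd24a, a mucin-like ligand of P-selectin, was at -0.47 ± 0.20 and Cd44, which can bind E-selectin, at -0.46 ± 0.21 (limma adjusted p = 0.769 for both).

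Among 19 further immunoglobulin-family and junctional adhesion genes, all above the filter, 8 were positive and 11 negative, with a median of -0.022 and 0 calls. The smallest p belonged to Icam5, a neuronal ICAM near the filter (+0.34 ± 0.15), Jam2, a junctional adhesion molecule (-0.13 ± 0.066), and Mcam, an adhesion molecule of vessel cells (+0.16 ± 0.094). Their adjusted p was 0.769 by limma. For 10 genes of proteins that anchor adhesion molecules to the actin cortex, 7 were positive and the median was +0.022, again with 0 calls. Vcl, which encodes vinculin, was at +0.14 ± 0.070, Ezr, which encodes ezrin, at -0.24 ± 0.13 and Rhog, a small GTPase, at +0.17 ± 0.13.

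The leukocyte side of the same bonds was measured too. Of 13 integrin genes and partners, 12 were above the filter, with 7 positive, 5 negative, a median of +0.035 and 0 calls. Some of them, such as Sirpa and Cd244a, are not integrin chains or established parts of these bonds, so the counts describe the list. Itgal and Itgb2, the LFA-1 chains that bind the ICAMs, differed by -0.13 ± 0.17 and +0.22 ± 0.19, and Itga4 and Itgb1, the VLA-4 chains that bind VCAM-1, by -0.10 ± 0.11 and +0.0092 ± 0.067. Itgam, the alpha chain of Mac-1, which microglia also express, was at +0.35 ± 0.16, and Sirpa, a myeloid surface receptor, at +0.22 ± 0.12. The third by p was Itgae at -0.10 ± 0.064. Itgam was lowest in PBS array 2 (8.04, against 8.56 to 8.97), the array in which Selplg and the microglial markers were lowest. Itgal, Itgb7, Itgax and Cd244a had PDGF-CC array 4 and PBS array 3 as their lowest arrays.

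A list drawn up for Weibel-Palade body contents and release, apart from Selp and Vwf, had 21 measured members, of which 20 were above the filter. Some of them, such as Mycbp and Adamts13, are not established parts of these bodies or of their release, so the counts describe the list. There were 8 positive and 12 negative differences, a median of -0.032 and 0 calls. Plat, the gene of tissue plasminogen activator, was at 9.57, 9.85, 9.83 and 9.52 after PDGF-CC and at 9.90, 10.15 and 9.92 after PBS, lower in every PDGF-CC array (-0.29 ± 0.11; limma adjusted p = 0.769). Il6 and Cxcl1, cytokine genes that are in the NF-kB list too, were at -1.08 ± 0.41 and -0.66 ± 0.36 (limma adjusted p = 0.769 for both). Il6 was at 4.75, 5.82, 5.71 and 4.78 against 6.14, 7.15 and 5.74, and PDGF-CC array 2 lay above PBS array 3.

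Genes whose levels over the 7 arrays were most like a member were found among 14113 other genes above the filter, by Pearson's r over these arrays, as a description only. The arrays include both groups and share the equalised value distributions. For Sele these were Psors1c2 (r = 0.982) and Stambpl1 (0.974), and for Selp they were Pik3r5 (0.996), a regulatory subunit of PI3-kinase gamma, and Epop (0.994). Pik3r5 was at 7.51, 7.45, 7.37 and 6.71 after PDGF-CC and at 7.36, 7.35 and 6.99 after PBS, lowest in the same arrays as Selp. For Icam1 they were Zfp300 (0.982) and Mrc1 (0.977), the mannose receptor gene of border-associated macrophages. Those for Vwf were Cat (0.994) and Clic5 (0.991), and those for Cd34 were Knop1 (0.990) and Clptm1 (0.988). Vcam1 was most like Foxm1 (0.997) and Serbp1 (0.997), Selplg like Unc13a (0.997) and Add1 (0.996), Icam2 like Rab3c (0.981) and Zbtb43 (0.979), and Ackr1 like Rbm34 (0.988) and Slc38a1 (0.983).

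**Figure D4:**
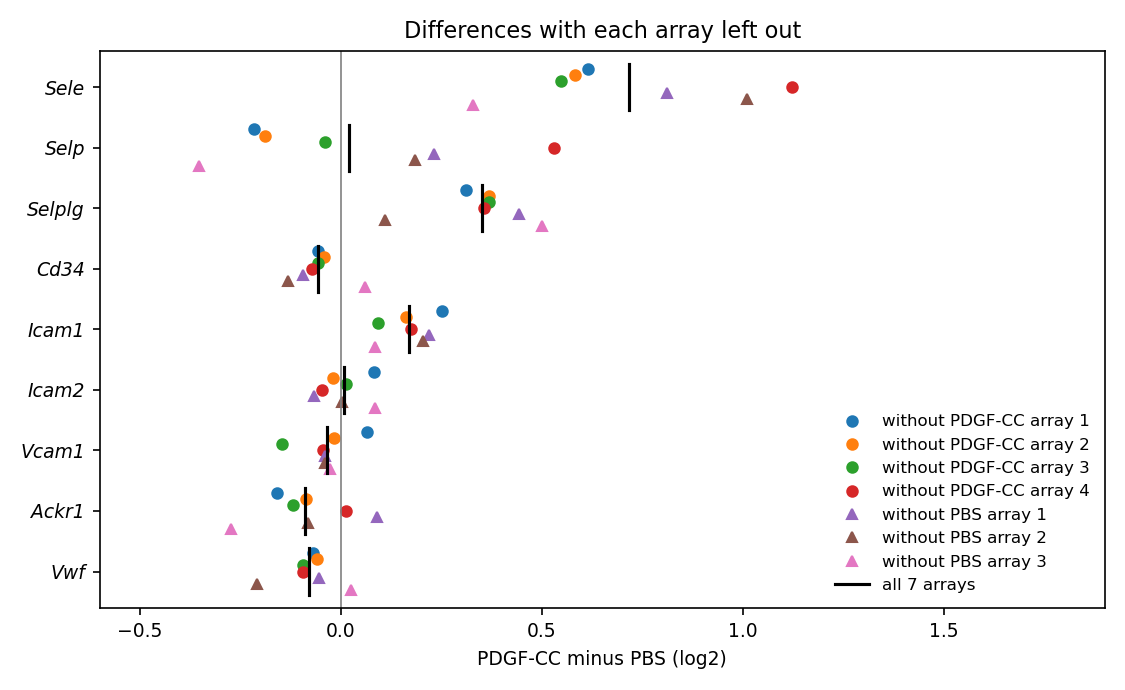
Difference between PDGF-CC and PBS (log2) for each gene with 1 array left out at a time (circles, PDGF-CC array left out; triangles, PBS array left out) beside the difference over all 7 arrays (vertical bars). Sele stayed above 0 throughout, from 0.33 to 1.12, and Selplg and Icam1 did so too, while Selp ran from -0.35 to 0.53.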

How the data were processed

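Total RNA (10 ng a sample) was amplified, labelled with biotin and hybridised to 1 microarray per sample, per the labels' protocols. The values deposited by the authors were on the log2 scale. The submitters' processing notes list RMA, limma and the Affymetrix Expression Console; versions and genome build: not given in the sources used here. RMA equalises the distributions of the arrays, which removes any overall difference in RNA level. Some genes, such as Vcam1, had exactly equal values in several arrays, and the source of these ties was not tested. Precision is limited by how few arrays there are.

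Of 33793 probe sets, 23521 had 1 gene symbol in the platform annotation, 1814 had several and 8458 had none. Genes were named from probe sets with a single symbol, at the brightest. Annotated probe sets whose mean exceeded the 30th percentile (17734) were tested in limma 3.58.1 (lmFit, eBayes; R 4.3.3), 2-sided, without covariates, with Benjamini-Hochberg adjustment over all of them. Every member is named, with up to 3 genes of smallest p from each pathway list and the 2 genes most like each member; genes named for their array pattern, and Tnf, Il1b, S100a8, the venous markers and the integrin chains, were chosen after their values were seen. Members and lists were chosen with earlier results of these data known. Same-numbered arrays of the groups were not treated as pairs in the main fit. The fit was tested on simulated data. Promoters came from RefSeq (GRCm38.p6), and the entries matched 5 of 9 members. Figures were drawn with matplotlib 3.10.9.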

Additional observations from a re-analysis of the deposited data

Results flagged for a closer look

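Sele in PDGF-CC array 4, at a log2 level of 7.29, stood apart from the other 3 PDGF-CC arrays, which lay between 8.81 and 9.01. Its gap to the nearest of them, divided by the range of the group, was 0.883, above Dixon's 95% critical value of 0.829 for 4 samples. The same array was lowest for Selp, where the ratio was 0.765 and did not exceed that value. Chance passes about 1 in 20 groups, and 9 genes were examined in the PDGF-CC group. The PBS group, with 3 arrays, was not examined in this way.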

How the results depend on the processing

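Under 18 alternatives (19 for Selplg, with the mean of its probe sets) no member passed the adjusted threshold. Sele and Selplg kept a positive difference in every one, with limma adjusted p from 0.586 to 0.899 and from 0.641 to 0.846. Not all alternatives could change a sign. Dropping the filter, moving it to percentile 50 and the trended and robust prior left every difference as it was. The replicate block gave the same differences as leaving out PDGF-CC array 4. The difference changed sign for Vcam1 with quantile normalization repeated (+0.0058), array weights (+0.023), description number as covariate (+0.031) and within numbers 5 to 7 (+0.12). For Selp it did so with array weights (-0.28) and description number (-0.38). For Icam2 it did so with numbers 1 to 4 against 5 to 7 as a block (-0.023), within 5 to 7 (-0.072) and with the replicate block (-0.047). Ackr1 changed sign within 5 to 7 (+0.18) and with the replicate block (+0.013), and within 1 to 4 so did Icam1 (-0.023) and Cd34 (+0.036). The causes were not tested. With single arrays left out, differences ran from -0.066 to 0.084 for Icam2, -0.15 to 0.064 for Vcam1, -0.35 to 0.53 for Selp, -0.27 to 0.089 for Ackr1, -0.21 to 0.025 for Vwf and -0.13 to 0.059 for Cd34. The members' median ran from -0.040 to 0.089 and was 0.097 within 5 to 7, and the number of positive members ran from 3 (without PDGF-CC array 2) to 6. Over all tested probe sets, 3 were called with a filter at percentile 50, with arrays centred on their median or with a trended and robust prior, 1 with repeated quantile normalization, and 0 to 1 with an array left out (1 without PDGF-CC array 3). No member was among them.

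The replicate block used the number in the sample titles. Deviations of arrays with the same number correlated at 0.163, 0.107 and 0.084. For PDGF-CC arrays 1 to 3 each was the highest of that array's correlations with the PBS arrays, the next being 0.077, 0.040 and -0.0075. PDGF-CC array 4 has no PBS array of its number and correlated best with PBS array 3 (0.320), above the 0.084 of PDGF-CC array 3. Whether the number pairs the samples cannot be told from these values. With the replicate block Sele was at +1.12 (limma adjusted p = 0.665), the same difference as without PDGF-CC array 4, and 0 probe sets were called. The test within 5 to 7 could not be fitted with a spread for its lone PBS array, and only values are given.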
